A study of Arabidopsis thaliana with 21 samples.

Results

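The genes described here are 8 Arabidopsis loci, AT2G01460, AT5G24610, AT4G39900, AT3G06760, AT1G27870, AT1G27880, AT3G42075 and AT3G42130. Each had a peak of chromatin immunoprecipitation (ChIP-seq) in the lists of all 5 forms of the transcription factor GLABRA2 (GL2) fused to enhanced yellow fluorescent protein (EYFP), and none in the list of the gl2-5 null mutant. A peak was counted for a gene when its summit lay in the gene span or within 1 kb of it. These 8 genes were taken from 37887 genes on the nuclear chromosomes of the RefSeq table, of which 19, or 0.0501%, met the same rule. Among 27432 protein-coding genes 11 met it, or 0.0401%. The members were thus chosen by the presence of peaks in these same lists, so the tags, folds and scores below are given as descriptions without a test, and no count of genes that met it is read as a result.

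GL2 belongs to class IV of the homeodomain leucine zipper (HD-Zip) proteins and is active in the shoot and root epidermis. It promotes trichome growth, keeps root epidermal cells in non-hair files from forming hairs and is needed for seed coat mucilage. In this family the homeodomain contacts DNA, the leucine zipper joins partner proteins, and the START domain is a lipid-binding module.

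Chromatin of whole Columbia seedlings was taken 10 days after transfer to light and immunoprecipitated with anti-GFP, an antibody that recognises EYFP too. The 5 fusion genotypes carried EYFP:GL2 wild type, EYFP:gl2_dSTART, EYFP:gl2_dZip, EYFP:gl2_Amo or EYFP:gl2_E375G R392M, all in a gl2-5 homozygous background, so that every group lacked the endogenous GL2 function. The sixth genotype, the gl2-5 null mutant without a transgene, measured what the antibody recovers in the absence of a fusion. Per the labels, transgenes were introduced by floral dip and, of the fusions, the wild-type form alone rescued the mutant phenotype. The name Amo is not spelled out in the labels. The promoter of the transgenes and the number of independent lines are not given in the sources used here. GL2, gl2_Amo and gl2_E375G R392M had 3 ChIP libraries each and gl2_dSTART, gl2_dZip and gl2-5 had 2 each, with 1 input per genotype. The libraries of a genotype were merged before peaks were called. Each value below is therefore 1 measurement per genotype with no replicate error.

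The caller kept at most 1 tag at each position, which removed between 95.3% (gl2-5) and 99.2% (gl2_Amo) of the ChIP tags. The fewest tags, 227071, were retained in gl2-5, and the most, 1248287, in gl2_dZip. GL2 retained 352707 tags, gl2_dSTART 297665, gl2_Amo 538666 and gl2_E375G R392M 372864. The fitted fragment size was between 52 and 58 bp, close to the tag length of 51 bp, in all 6 lists. Intervals on tag counts are exact 95% Poisson intervals, which cover counting error only and take the retained tags as independent. Scaled tags are tags per 1000000 tags retained by the caller for that genotype.

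The 8 genes shared 6 sites. AT1G27870 and AT1G27880 are neighbours, and the same peaks lay between them. AT3G42130 lies within the span of AT3G42075, and both were counted for the same peaks. The other 4 genes had a site each. At all 6 sites the peaks of the 5 fusions overlapped at 1 common place, so the 30 peaks fell into 6 groups of 5. The single peak outside these groups was a second gl2_Amo peak in AT1G27870 (chromosome 1, 9706906 to 9707069, 8 tags, fold 30.3), 1200 bp from the common site.

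The site with the most GL2 tags lay inside AT2G01460 on chromosome 2. This gene has the longest span of the 8 (6189 bp), and RefSeq lists 3 transcripts for it. The GL2 peak reached from 208272 to 208377 and held 26 tags (17.0 to 38.1). The gl2_Amo peak held 40 tags (28.6 to 54.5), that of gl2_E375G R392M 17, that of gl2_dSTART 15 and that of gl2_dZip 11. In scaled tags, GL2 at 73.7 and gl2_Amo at 74.3 stood highest, gl2_dSTART at 50.4 and gl2_E375G R392M at 45.6 were intermediate, and gl2_dZip at 8.81 (4.40 to 15.8) was lowest. By the caller's score the peak ranked 51st of 1001 in the GL2 list and 633rd of 1259 in that of gl2_dZip. In between, gl2_dSTART had it at rank 119 of 2539, gl2_Amo at rank 145 of 3533 and gl2_E375G R392M at rank 151 of 1280. The site is in the upper 11.8% of 4 lists and near the middle of the gl2_dZip list. The summits lay 2543 to 2553 bp inside the lower end of the span, about 41% of the way along it.

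AT5G24610, a gene with a span of 1176 bp on chromosome 5, held the site with the next most GL2 tags. By score it ranked above AT2G01460 in the 4 lists of the altered forms, at 111 against 119 for gl2_dSTART, 306 against 633 for gl2_dZip, 119 against 145 for gl2_Amo and 69 against 151 for gl2_E375G R392M. The GL2 peak (8428139 to 8428232) had 20 tags (12.2 to 30.9). The gl2_Amo peak had 30 tags, the gl2_E375G R392M peak 19, and both deletion forms, gl2_dSTART and gl2_dZip, had 14. In scaled tags GL2 was at 56.7, gl2_Amo at 55.7, gl2_E375G R392M at 51.0, gl2_dSTART at 47.0 and gl2_dZip at 11.2, so that 4 of the fusions lay close together and gl2_dZip apart below them. The fold enrichment followed another order, with GL2 at 142, gl2_E375G R392M at 89.3, gl2_dSTART at 77.0, gl2_Amo at 49.6 and gl2_dZip at 37.4. The summits were 104 to 118 bp inside the lower end of the gene span.

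AT4G39900 on chromosome 4 carried its site at the upper end of a span of 2302 bp, 21 to 38 bp inside it. GL2 had 11 tags (18510482 to 18510564, fold 78.0), gl2_dSTART 6, gl2_dZip 20, gl2_Amo 23 and gl2_E375G R392M 15. Here the highest fold belonged to gl2_Amo (94.4) and not to the wild-type form. This is the one site at which another gene came near the rule. The span of UBP3, a ubiquitin-specific protease gene, begins 987 to 1004 bp from the 5 summits. It was within 1 kb of the summits of GL2 (999 bp), gl2_dZip (987 bp) and gl2_E375G R392M (1000 bp), and just beyond it for gl2_dSTART and gl2_Amo (1004 bp each).

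At AT3G06760 on chromosome 3 the peaks were 68 to 86 bp long, the shortest of the 30 among them, and their summits lay 99 to 111 bp inside the lower end of a span of 1908 bp. The GL2 peak (2132830 to 2132897) had 8 tags and the gl2_dSTART peak 7, while gl2_dZip had 15 and both gl2_Amo and gl2_E375G R392M had 13. In scaled tags GL2 was at 22.7, gl2_dSTART at 23.5, gl2_dZip at 12.0, gl2_Amo at 24.1 and gl2_E375G R392M at 34.9. Their counting intervals all overlapped, including that of gl2_dZip (6.73 to 19.8) with that of GL2 (9.79 to 44.7). The score placed the peak 190th of 1001 in the GL2 list and 1758th of 2539 in that of gl2_dSTART, where the fold of 10.2 was the lowest of the 30 peaks.

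The site between AT1G27870 and AT1G27880 on chromosome 1 rested on few tags. GL2 had 7 (9708167 to 9708274), gl2_dSTART 7, gl2_dZip 15, gl2_Amo 9 and gl2_E375G R392M 6. In scaled tags, the 5 values ran from 12.0 for gl2_dZip to 23.5 for gl2_dSTART, a range smaller than the counting interval of the GL2 value (7.98 to 40.9). The summits were 931 to 935 bp above the span of AT1G27870, which is the largest distance of any member and just inside the 1 kb limit. They were 628 to 632 bp below the span of AT1G27880. AT1G27870 has a span of 642 bp and AT1G27880 one of 5506 bp.

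The site with the fewest GL2 tags lay 66 to 75 bp above the upper end of AT3G42075 and 520 to 529 bp above that of AT3G42130, on chromosome 3. GL2 had 6 tags there (14299358 to 14299450), which is the fewest of any GL2 peak, and gl2_dSTART had 5, the fewest of any peak in its list. The gl2_Amo peak had 8 tags, the gl2_dZip peak 10 and the gl2_E375G R392M peak 14. The missense form stood apart at this site: its peak ranked 115th of 1280 with a fold of 72.3, whereas the GL2 peak ranked 612th of 1001, that of gl2_Amo 2047th of 3533 and that of gl2_dSTART 2084th of 2539. In scaled tags gl2_E375G R392M had 37.5 (20.5 to 63.0) and GL2 17.0 (6.24 to 37.0), so the counting intervals still overlapped.

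**Figure D1:**
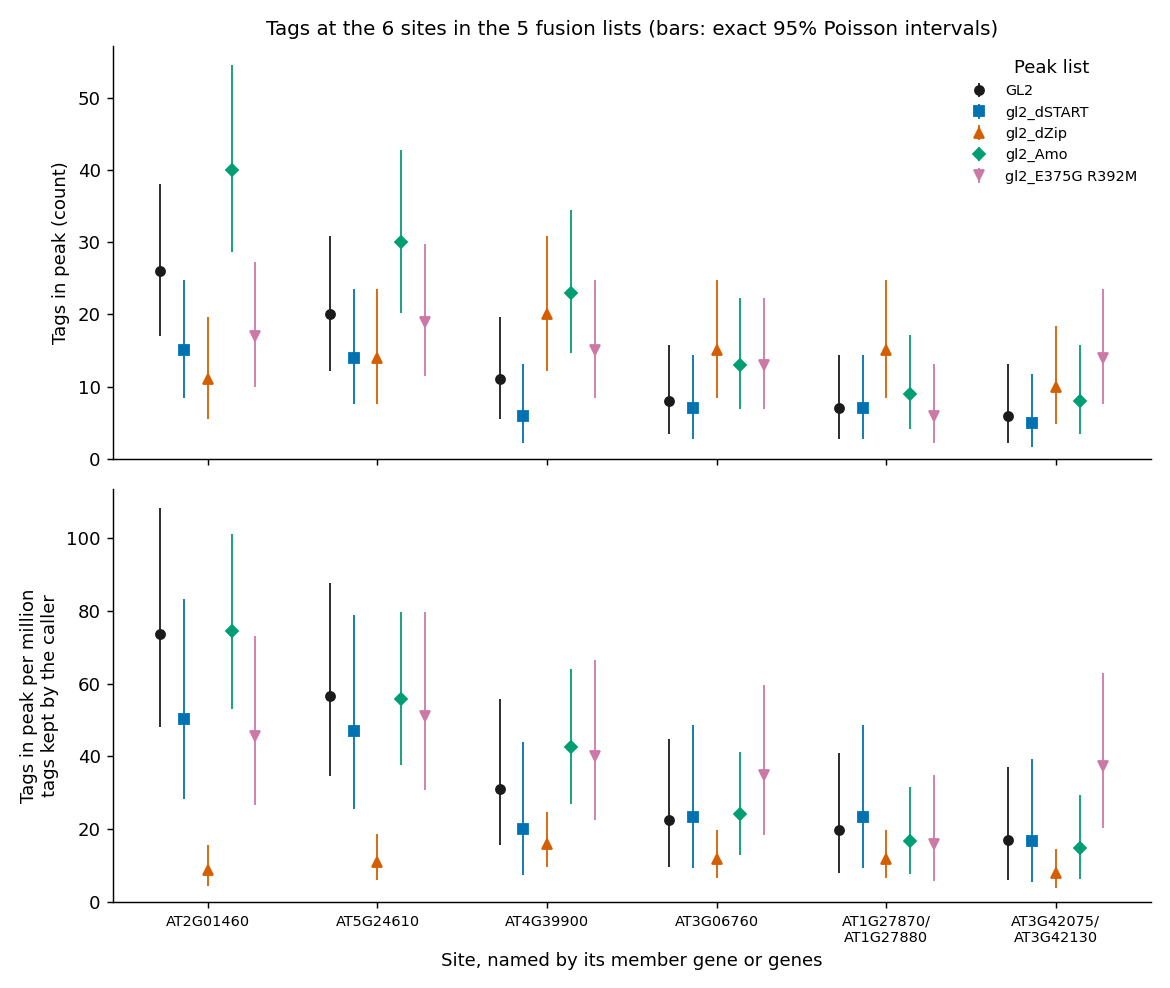
Tags in the peak (upper panel, count) and scaled tags, per 1000000 tags kept by the caller (lower panel), at the 6 sites, 1 symbol per fusion list with its exact 95% Poisson interval. The gl2_dZip list (orange triangles) is the lowest of the 5 at each site in scaled tags, at 8.01 to 16.0, while GL2 runs from 17.0 to 73.7.

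Across the 6 sites the counts did not fall in the same order in all forms. The GL2 counts fell from 26 tags at AT2G01460 to 6 at AT3G42075/AT3G42130, a ratio of 4.33, and the gl2_Amo counts from 40 to 8 in the same order of sites (Spearman's rho 1.0 over 6 sites, a description). The rho with GL2 was 0.81 for gl2_dSTART and 0.77 for gl2_E375G R392M. It was 0.06 for gl2_dZip, whose counts stayed between 10 and 20 tags, with the highest at AT4G39900. The intervals of the gl2_dZip counts all overlapped (4.8 to 18.4 for 10 tags, 12.2 to 30.9 for 20). Their order is therefore within counting error. All of these lists cover the same genome positions and keep 1 tag per position, and the sites were chosen for having a peak in each.

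Set against GL2 in scaled tags, gl2_Amo was at 0.842 to 1.37 of the wild-type value, gl2_dSTART at 0.646 to 1.18, gl2_E375G R392M at 0.618 to 2.21 and gl2_dZip at 0.120 to 0.605. For gl2_dZip the 95% counting interval of the ratio (exact binomial) lay below 1 at AT2G01460 (0.0533 to 0.250) and AT5G24610 (0.0924 to 0.412) and included 1 at the other 4 sites. For the other 3 forms it included 1 at all 6 sites, with limits as far apart as 0.797 and 7.01 for gl2_E375G R392M at AT3G42075/AT3G42130. At these tag numbers a difference from the wild-type form was not detectable there, which does not show that the forms were alike. The retained total for gl2_dZip was also the largest of the 6, and its part in the low ratios was not tested.

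The caller's FDR, a percent obtained from calls with ChIP and input exchanged, differed between the lists at the same sites as it did over the whole lists. The gl2_dSTART peaks had an FDR between 0% and 1.10%, the gl2_Amo peaks between 0.84% and 3.86% and the gl2_E375G R392M peaks between 0.87% and 4.04%. In the GL2 list it was 0% at AT2G01460 and AT5G24610, 3.05% at AT4G39900, 3.16% at AT3G06760, 5.35% at AT1G27870/AT1G27880 and 5.92% at AT3G42075/AT3G42130. In the gl2_dZip list it was 100% at 4 sites, 95.9% at AT3G06760 and 81.0% at AT4G39900. Over whole lists an FDR of 5% or less was given to all 2539 gl2_dSTART peaks, 3520 of 3533 gl2_Amo peaks, 871 of 1280 gl2_E375G R392M peaks, 428 of 1001 GL2 peaks and 2 of 1259 gl2_dZip peaks, so these values follow the list and are not particular to the 8 genes. The presence of the 8 genes in all 5 lists thus rests on gl2_dZip calls that were largely matched in score when ChIP and input were exchanged. With gl2_dZip not required, 42 genes met the rule instead of 19, the 8 among them.

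The summits were closer together than the rule asked for. The distance between the lowest and the highest of the 5 summits was 4 bp at AT1G27870/AT1G27880, 9 bp at AT3G42075/AT3G42130, 10 bp at AT2G01460, 12 bp at AT3G06760, 14 bp at AT5G24610 and 17 bp at AT4G39900, with a median of 11 bp. The stretch covered by all 5 peaks was 63 to 99 bp long. At AT4G39900 the gl2_dZip summit was 12 bp above that of GL2, the largest offset from GL2 at any of the 6 sites. The one long flank was that of the gl2_Amo peak at AT3G42075/AT3G42130, which was 182 bp long.

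**Figure D2:**
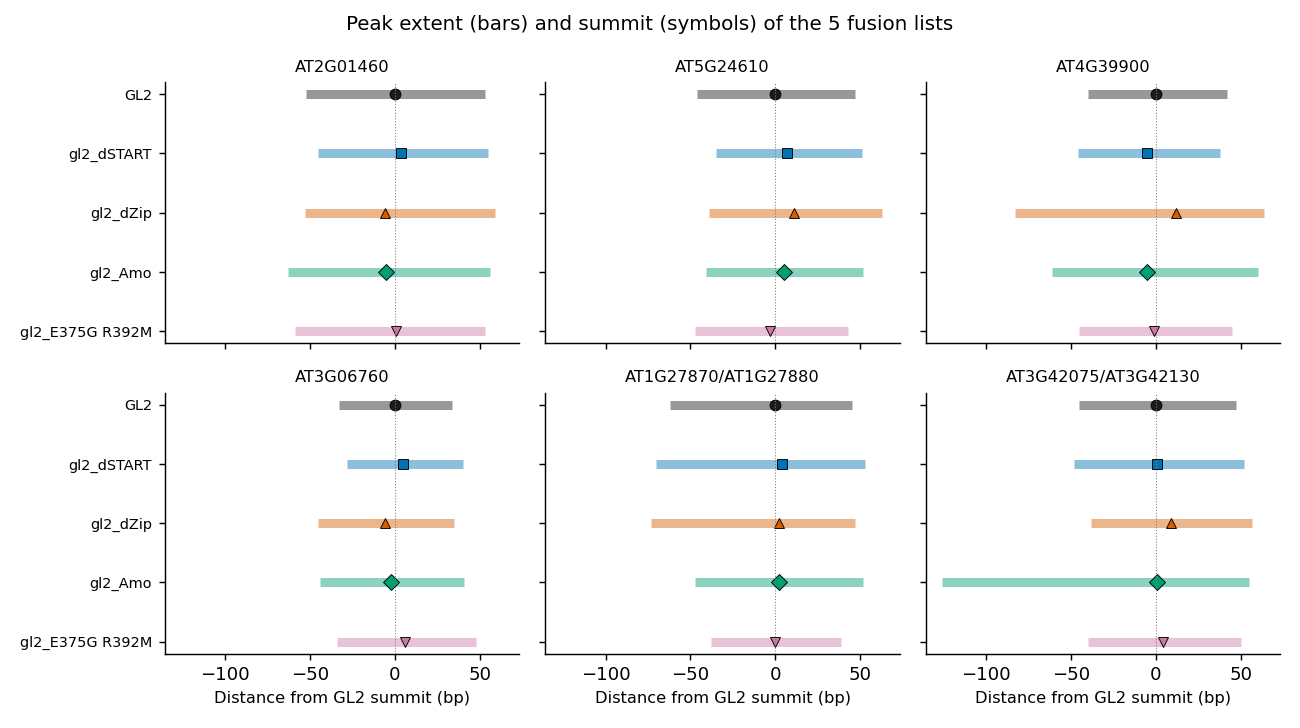
Extent of each peak (bars) and its summit (symbols) in bp from the GL2 summit, 1 panel per site and 1 line per fusion list. All summits lie within 12 bp of the GL2 summit, and the bars overlap over 63 to 99 bp.

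Such agreement was not particular to these sites. Of the GL2 peaks overlapped by a peak of every other fusion, 82 also overlapped a gl2-5 peak, and at the 40 of these where no fusion peak exceeded 200 bp the median summit distance was 14 bp (1 to 56). Among the other 26 common sites without gl2-5, the 3 with peaks of at most 200 bp had distances of 8 to 11 bp. Over all 26 the median was 16.5 bp, with a range up to 4958 bp. Their GL2 peaks had a median length of 278 bp, against 93.5 bp at the 6 sites.

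The 30 peaks were narrow in their own lists as well. Their length was 68 to 182 bp, and 29 of them were shorter than the median of their list. The exception was the 182 bp gl2_Amo peak, whose list has a median of 155 bp. In the gl2_dZip list, where the median was 264 bp, the 6 peaks were 81 to 148 bp long. The deposited fold enrichment, the authors' value for each peak, exceeded the list median for 28 of the 30 peaks and the deposited score did so for 24. The sites were chosen for a peak in every fusion list, and the same counts were not made at other common sites. Against other common sites the 6 held few tags, with a median of 9.5 GL2 tags. It was 23.0 at the 82 sites shared with gl2-5 and 17.0 at the 40 of these with peaks up to 200 bp. At the other 26 sites without gl2-5 it was 47.0, and 10.0 at the 3 with peaks up to 200 bp.

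At 5 of the 6 sites the 500 kb bin held between 116 and 189 protein-coding genes (scaled to a full bin at the end of chromosome 4), near or above the median bin of 131. The site of AT3G42075 and AT3G42130 was the exception, with 21 genes in its bin. Of the other 26 common sites without gl2-5, 25 lay in bins with under 50% of the median gene number, called gene-poor here. The 6 sites had to lie within 1 kb of a gene and the other common sites did not. The contrast is therefore not independent of the rule. Of the 82 common sites that gl2-5 shared, 48 lay outside gene-poor bins, as did 29 of the 40 with narrow peaks, so this position was not particular to the sites of the 8 genes. Within the genes, 3 of the 4 sites inside a span lay within 120 bp of one of its ends (AT5G24610, AT4G39900 and AT3G06760). The outer 120 bp at both ends make up 20.4%, 10.4% and 12.6% of these spans. The limit of 120 bp was not planned and lies just above the largest of these distances, 118 bp at AT5G24610. The shares are therefore no test of position. The table used here carries no strand or exons, so whether an end is the start or the finish of transcription, and whether a summit is exonic, was not analysed here.

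All 8 genes are listed as protein-coding, with 1 to 3 RefSeq transcripts each, and the table gives the locus number in place of a gene name for each of them. No function is therefore assigned to their products here. Of 16 class IV HD-Zip genes and 18 genes of the GL2 pathway, which include regulators that act above GL2 and genes below it, 0 met the rule, which at 0.0501% of all genes is near the background. In the pathway list MYB23, a MYB factor of trichome growth, had 1 peak in each of the 6 lists, gl2-5 included, and 13 of the 18 genes had no peak in any list. In the HD-Zip list GL2 itself and PDF2 had peaks in all 6 lists, and 11 of 16 had none. Of all genes, 83.7% had no peak in any of the 6 lists. Taken singly, the GL2 list had a peak at 1 of 18 pathway genes and 3 of 16 HD-Zip genes, against 2.58% of all genes. The gl2_dSTART list had 3 and 3 (5.37% of all genes), that of gl2_dZip 1 and 2 (2.55%), that of gl2_Amo 1 and 2 (7.6%), that of gl2_E375G R392M 3 and 3 (3.24%) and that of gl2-5 1 and 2 (2.16%).

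By the rule, gl2-5 had no peak within 1 kb of any of the 8 genes. Its nearest peak lay 5820 bp from the GL2 summit at AT3G42075/AT3G42130 (9 tags, fold 15.4), 21585 bp at AT1G27870/AT1G27880, 38312 bp at AT3G06760, 70401 bp at AT5G24610, 152042 bp at AT2G01460 and 241751 bp at AT4G39900. The gl2-5 list was the shallowest of the 6, and its peaks with the fewest tags held 5. Scaled to the retained tags of gl2-5, 17 of the 30 fusion peaks would hold at least 5 tags and 13 fewer. At AT2G01460 the count of GL2 at the gl2-5 depth was 16.7 tags, that of gl2_Amo 16.9, that of gl2_dSTART 11.4, that of gl2_E375G R392M 10.4 and that of gl2_dZip 2.0. AT5G24610 gave 12.9, 12.6, 10.7, 11.6 and 2.55 in the same order. At both sites 4 of the 5 fusions stood above the fewest tags that gave a gl2-5 peak. This scale uses the retained tags alone. Before removal the totals were 4872999 for gl2-5, 19652687 for GL2, 24075540 for gl2_dSTART, 70376472 for gl2_Amo and 29386624 for gl2_E375G R392M. By those totals gl2-5 was further below these 4 fusions, and scaling to them was not done. At AT1G27870/AT1G27880 the counts at the gl2-5 depth were 2.73 to 5.34, and at AT3G42075/AT3G42130 they were 1.82 to 8.53, with 1 of the 5 fusions above 5 tags at each. At the strength seen in the other 4 fusions such a site would be at or below the limit of detection in gl2-5, and its absence from that list does not show that the null mutant lacked it.

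**Figure D3:**
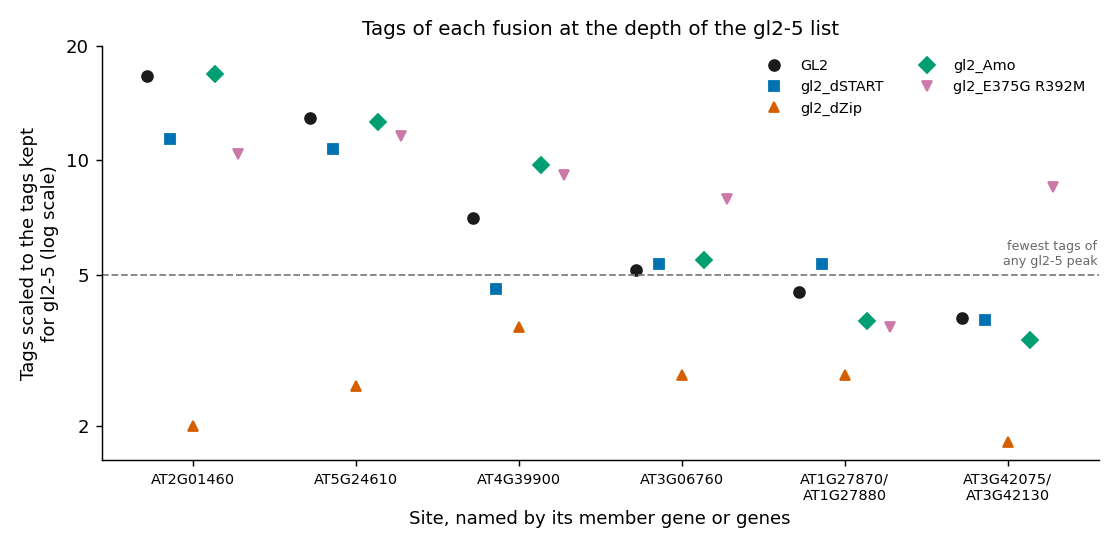
Tags of each fusion list at the 6 sites, scaled to the tags kept for gl2-5 (log scale), with the 5 tags of the smallest gl2-5 peaks as a dashed line. At AT2G01460 and AT5G24610 all lists but gl2_dZip lie above 10 tags, and at AT1G27870/AT1G27880 and AT3G42075/AT3G42130 all but 1 lie below the line.

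A further 11 genes met the rule but are not among the 8. They comprised 3 protein-coding genes (AT2G07440, AT4G05612 and AT5G10336), 6 pseudogenes and 2 miRNA genes, and 7 of the 11 lay in gene-poor bins. At AT2G07440 and AT5G10336 the GL2 peak overlapped a gl2-5 peak whose summit fell just outside the limit, at 1005 and 1084 bp from the gene. At the 8 members no GL2 peak overlapped a gl2-5 peak. The rule largely fixed this, as it barred gl2-5 summits within 1 kb of the genes. At 5 of the 11 further genes the 5 fusion peaks closest to each other overlapped at 1 place, as at all 8 members. At the other 6 the lists had peaks at different places near the gene. Over the 11 genes the closest summits were a median of 365 bp apart (1 to 22602), with up to 18 peaks per gene. At 4 of the 11 they lay as close together as at the members (4 to 17 bp). On the other side of the limit, 86 genes had peaks in all 5 fusion lists and in gl2-5 (0.277% of all genes had peaks in the 5 with or without gl2-5), and 72 genes had peaks in 4 fusion lists and none in gl2-5. Of these 72, 38 lacked GL2, 23 gl2_dZip, 5 gl2_dSTART, 5 gl2_E375G R392M and 1 gl2_Amo. Among the 18 protein-coding genes of the 72, 11 lacked gl2_dZip and 2 lacked GL2. Of the 11, AT2G08986 had the GL2 peak with the highest score (chromosome 2, 3617935 to 3628098, 9265 tags, fold 6.19). Another was AT2G32560, whose GL2 peak (chromosome 2, 13824563 to 13824692, 18 tags, fold 121) was narrower and of higher fold. Neither had a gl2_dZip peak within 1 kb of the gene.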

How the data were processed

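ChIP and input libraries of 6 genotypes were sequenced, and 1 peak list per genotype was used. Per the file headers, the authors called peaks with MACS 1.4.2 on 1 merged ChIP alignment against 1 input alignment (p cutoff 1e-05, at most 1 tag kept per position). Bowtie2 2.2.3, bcl2fastq, the build TAIR10 and MACS2 1.4.2 are named, per the submitters' processing notes. The deposited tag count is unscaled, the deposited score is the caller's −log10 p multiplied by 10, the deposited fold is a ratio to the local background, and the deposited FDR is a percent. Fold, score and FDR describe peaks within a list.

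Summits were placed at the peak start plus the deposited offset minus 1. Gene spans came from RefSeq on TAIR10.1, whose nuclear coordinates were taken to equal TAIR10 and which were used for distances and neighbours. Peaks on the mitochondrial genome were left out. Bins of 500 kb holding under 50% as many protein-coding genes as the median bin are called gene-poor. Counts used Python 3.11.15, pandas 2.3.3 and scipy 1.17.1. The coding of the gene rule was checked on simulated peaks against another coding of the same rule, which does not test the rule itself. Named genes were the members, genes within 1 kb of their summits, pathway genes that met the rule and up to 5 genes that missed it by 1 list. MYB23, GL2, PDF2, AT2G07440, AT4G05612 and AT5G10336 were named after their values were seen. Members and lists were chosen with earlier results of these data known. Sequence features were planned and were not analysed here.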

Additional observations from a re-analysis of the deposited data

How the results depend on the processing

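Counting summits inside the gene span alone left 4 of the 8 genes (7 genes in all, 5 protein-coding), and a flank of 500 bp left 5 (9 and 6). A flank of 2 kb kept all 8, with 36 genes in all and 17 protein-coding. A score of at least 70, applied to gl2-5 too, left 4 of the 8 genes, without AT2G01460, AT3G06760, AT3G42075 and AT3G42130. With fusion lists cut to 1001 peaks, AT2G01460, AT4G39900 and AT5G24610 remained, 3 of the 8 (9 genes in all, 5 protein-coding). At an FDR of 5% or less 0 members, 0 genes and 0 protein-coding genes met the rule. As 2 of 1259 gl2_dZip peaks are within that limit, the counts of 0 were fixed by the gl2_dZip list. In the GL2 list the peaks at AT1G27870/AT1G27880 (5.35%) and AT3G42075/AT3G42130 (5.92%) also exceeded the limit, and those at the other 4 sites did not. With GL2 not required 57 genes met it, and with gl2_dZip not required 42, of them 22 protein-coding. A score of at least 60 left 6 of the 8, and the other alternatives run kept all 8. Midpoints in place of summits moved the median distance from 11 to 13 bp. No paired analysis was possible because the libraries of a genotype were merged before peaks were called, which also prevented leaving out single replicates. Sites with 5 to 10 tags lie at the limit of calling.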
